A study of Mus musculus with 8 samples.

Results

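The interleukin-1 (IL-1) family of cytokines and its receptors were examined in back skin of mice that received alpinetin (AP) or its vehicle (VC). The genes were chosen by name, as the listed ligands, receptor antagonist and receptors of the family, and all 9 were found among the 18770 genes of the expression table. They comprise the ligands Il1a, Il1b, Il18 and Il33, the antagonist Il1rn, the receptor chains Il1r1, Il1rap and Il1rl1, and the decoy receptor Il1r2. The mice were wildtype C57BL/6 animals (C57BL/6J in the study's methods) aged 7 to 8 weeks whose back hair had been removed. No other agent or allele is named for either group. Alpinetin is a plant flavonoid, and AP mice had it put on the skin once a day from 24 h after depilation, at 3 mg/ml and in a volume of 20 µl, with 65% ethanol as the solvent. VC mice had 20 µl of the 65% ethanol alone. Skin was taken on day 4 after depilation, and RNA came from dermis with its hair follicles once the epidermis between follicles had been removed. Each group held 4 libraries. Their names VC.1 and so on, and AP.1 and so on, are those of the table columns, which give the group but not the mouse, and 4 values in a row below follow that order. The reads on listed genes numbered 6454563 to 7264151 in the VC libraries and 8507783 to 11190113 in the AP libraries. Reads on mitochondrially encoded genes made up 42.1% to 54.3% of each VC library and 5.32% to 11.1% of each AP library, which left 3080758 to 3762217 nuclear reads in VC and 7561598 to 10594787 in AP.

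IL-1α and IL-1β are the classic agonists of the family, and both signal through a receptor made of the chain encoded by Il1r1 and the accessory chain encoded by Il1rap. The receptor antagonist encoded by Il1rn occupies the same receptor without signaling, and the type 2 receptor encoded by Il1r2 binds the agonists but has no signaling domain. IL-33 uses the receptor encoded by Il1rl1 with the same accessory chain, and IL-18 uses a pair of its own. Keratinocytes are known to store IL-1α and IL-33, to make the antagonist and to release them on injury, while IL-1β in skin comes mostly from myeloid cells. Values below are normalized counts, which are reads per gene divided by a size factor for each library, and fold changes are on the scale of log2(normalized count + 1), AP over VC. A gene was called at an adjusted p under 0.05 in limma across all genes tested, and SE is the standard error of the log2 fold change.

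Il33, Il1rn and Il1rap rose in the AP group and no member fell. The group means of these genes were 3.35-fold, 2.92-fold and 2.22-fold higher in AP than in VC. All 9 members passed the filter on low values, and 3 were called, all higher in AP. This is 33.3% of the members, while 10.3% of the 15964 genes tested were called in either direction, 6.33% higher (1011 genes) and the other 639 lower. The members were chosen with earlier results of these data known, so these shares are a description and not a test. All 9 log2 fold changes lay above 0, with a median of 0.93, against a median of 0.058 for all genes tested, of which 53.5% lay above 0. At an unadjusted p under 0.05 in limma, 5 members were higher and 0 lower, and edgeR and DESeq2 on the recovered reads also called 0 members lower. In 2 members the groups did not overlap, which held for 19.2% of all genes tested. When AP.3 or AP.4 was left out, 0 members were called, although 4 members had an unadjusted p under 0.05 in limma in either case. The calls over all genes then numbered 303 and 393, against 1650 with all libraries. The log2 fold changes without AP.3 and without AP.4 were 1.41 and 1.46 for Il33, 1.21 and 1.16 for Il1rn and 1.16 and 1.21 for Il1rap.

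**Figure D1:**
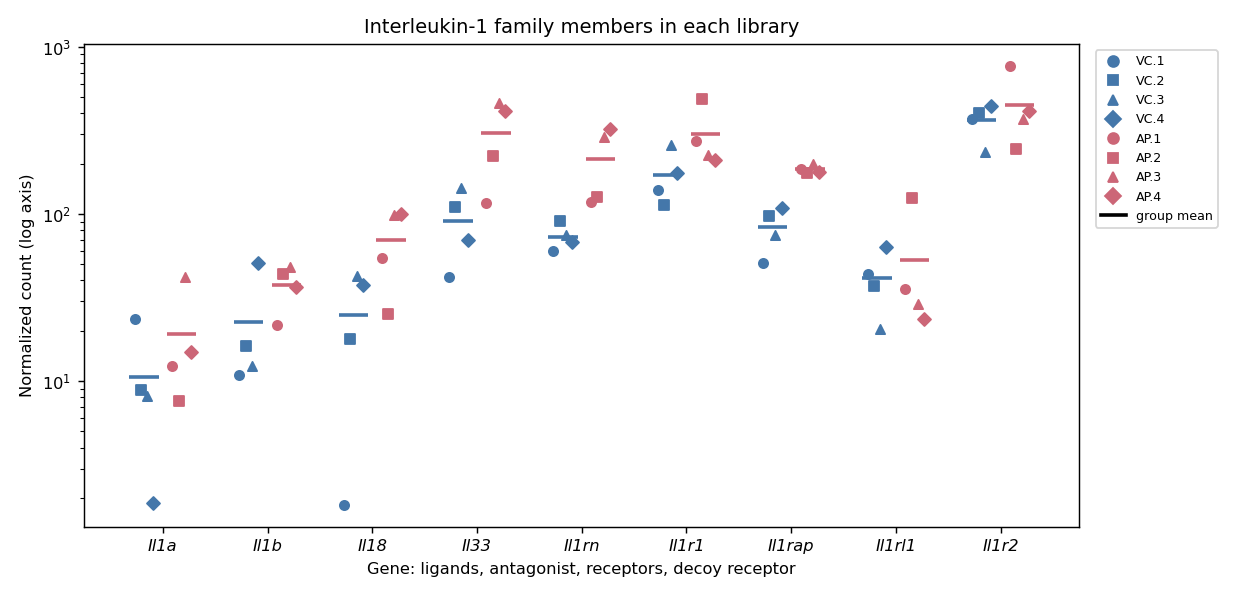
Normalized counts (log axis) of the 9 members in each library, with VC libraries in blue, AP libraries in red, a symbol for each library and a bar for the group mean. The Il1rn and Il1rap counts of all 4 AP libraries lie above those of all 4 VC libraries, and Il33 overlaps at AP.1 (116) and VC.3 (142).

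Among the ligands, Il33, whose product is a nuclear alarmin, was the only called gene. Its normalized counts were 41.8 in VC.1, 109 in VC.2, 142 in VC.3 and 69.4 in VC.4, and 116 in AP.1, 222 in AP.2, 460 in AP.3 and 415 in AP.4. AP.3 and AP.4 stood highest, AP.2 was also above every VC library, and AP.1 lay within the VC range. The mean was 90.6 ± 44.1 (SD, n = 4) in VC and 303 ± 162 (SD, n = 4) in AP. On the log2 scale the difference was 1.68 (SE 0.46, limma adjusted p = 0.0425), while an exact two-sided permutation test, which takes all 70 ways to split the 8 libraries evenly, gave p = 0.0571. The smallest p that this permutation test can give is 0.0286. The limma call was kept when VC.3 or AP.1 was left out and lost when any of the other 6 libraries was, with adjusted p from 0.0121 to 0.130. Il33 lies on chromosome 19 from 29925114 to 29960718 in mm10 and has 5 protein-coding transcripts in GENCODE M21.

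Il18 encodes a cytokine that is cut to its active form by caspase-1. Its normalized counts were 1.82 in VC.1, 17.7 in VC.2, 42.3 in VC.3 and 37.5 in VC.4, and 54.4 in AP.1, 25.3 in AP.2, 98.7 in AP.3 and 99.4 in AP.4. The value in VC.1 came from 1 read. AP.3 and AP.4 again held the highest values, and AP.2 lay within the VC range. Its estimated log2 fold change was 1.84 (SE 0.80, limma adjusted p = 0.145), with a 95% interval of 0.10 to 3.59, and the exact permutation p was 0.114. Without VC.1 the log2 fold change was 0.97, so the size of the estimate depends on that library, and Il18 was not called.

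Il1a and Il1b were low. Il1a counts were 23.6 in VC.1, 8.87 in VC.2, 8.19 in VC.3 and 1.88 in VC.4, and 12.3 in AP.1, 7.55 in AP.2, 41.9 in AP.3 and 15.0 in AP.4. These rest on 1 to 13 reads per VC library and 14 to 84 reads per AP library, and the groups overlapped, with AP.3 highest. The log2 fold change of Il1a was 0.90 (SE 0.72, limma adjusted p = 0.427), and its 95% interval of -0.68 to 2.49 covers differences in both directions. With VC.4 left out the estimate was 0.36, with AP.3 left out 0.45 and with VC.1 left out 1.39. Il1b counts were 10.9 in VC.1, 16.3 in VC.2, 12.3 in VC.3 and 50.6 in VC.4, and 21.8 in AP.1, 43.7 in AP.2, 48.3 in AP.3 and 36.5 in AP.4. VC.4 was higher than every AP library, while the other VC libraries were lower than all of them. The log2 fold change of Il1b was 0.93 (SE 0.51, limma adjusted p = 0.240), with a 95% interval of -0.19 to 2.05 and an exact permutation p of 0.171. Without VC.4 the log2 fold change was 1.41 (limma adjusted p = 0.0657). A library with 3 reads of a gene holds 4.10 to 5.63 normalized counts in VC and 1.49 to 2.18 in AP, so low values are less precise in VC.

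Il1rn, the receptor antagonist, had 60.03 normalized counts in VC.1, 90.1 in VC.2, 75.1 in VC.3 and 67.5 in VC.4, and 117 in AP.1, 127 in AP.2, 289 in AP.3 and 321 in AP.4. All AP libraries were above all VC libraries, and AP.3 and AP.4 stood apart from the other AP libraries. The mean was 73.2 ± 12.9 (SD, n = 4) in VC and 214 ± 107 (SD, n = 4) in AP. AP exceeded VC by 1.40 in log2 (SE 0.34, limma adjusted p = 0.0298), and the exact permutation p was 0.0286, the smallest it can give. Without VC.1, VC.4, AP.3 or AP.4 the limma adjusted p was 0.0649, 0.0545, 0.102 and 0.0885. Il1rn lies on chromosome 2 from 24336853 to 24351494 and has 4 protein-coding transcripts, which counts per gene do not tell apart.

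The antagonist was also set against its agonists within each library, where no scaling between libraries enters. The ratio of Il1rn to Il1a plus Il1b in normalized counts was 1.74 in VC.1, 3.59 in VC.2, 3.67 in VC.3 and 1.29 in VC.4, and 3.45 in AP.1, 2.47 in AP.2, 3.21 in AP.3 and 6.24 in AP.4. Reads of the antagonist outnumbered those of its agonists together in every library, but per kb of the longest transcript the ratio was 0.690 in VC.4. The groups overlapped. The log2 ratio was 1.22 ± 0.76 (SD, n = 4) in VC and 1.85 ± 0.56 (SD, n = 4) in AP, a difference of 0.63 with an exact two-sided permutation p of 0.286.

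Among the receptors, Il1rap, the accessory chain shared by the IL-1, IL-33 and IL-36 receptors, was the called gene. Its normalized counts were 50.9 in VC.1, 97.5 in VC.2, 75.1 in VC.3 and 109 in VC.4, and 185 in AP.1, 175 in AP.2, 198 in AP.3 and 179 in AP.4. All AP libraries were above all VC libraries, and the AP libraries were close to each other. The mean was 83.1 ± 25.6 (SD, n = 4) in VC and 184 ± 10.3 (SD, n = 4) in AP, a coefficient of variation of 30.8% and 5.60%. This gave a log2 fold change of 1.19 (SE 0.25, limma adjusted p = 0.0193), and the exact permutation p was 0.0286. Without AP.3 the limma adjusted p was 0.0719 and without AP.4 it was 0.0557. Il1rap lies on chromosome 16 from 26581704 to 26730117 and has 4 protein-coding transcripts, which can encode membrane-bound and soluble forms that counts per gene do not separate.

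Il1r1, the signaling receptor for IL-1α and IL-1β, had 138 normalized counts in VC.1, 112 in VC.2, 257 in VC.3 and 174 in VC.4, and 271 in AP.1, 489 in AP.2, 226 in AP.3 and 209 in AP.4. AP.2 was the highest library, and AP.3 and AP.4 lay within the VC range. The log2 fold change was 0.79 (SE 0.31, limma adjusted p = 0.116) with a 95% interval of 0.11 to 1.47, and the exact permutation p was 0.0857. Il1rl1, the IL-33 receptor known as ST2, had 43.7, 36.9, 20.5 and 63.8 normalized counts in the VC libraries against 35.5, 125, 28.9 and 23.6 in the AP libraries. Its groups overlapped, and the AP mean was the higher through AP.2 alone, 41.2 ± 17.9 (SD, n = 4) in VC and 53.3 ± 48.1 (SD, n = 4) in AP. The log2 fold change of Il1rl1 was 0.13 (SE 0.53, limma adjusted p = 0.891), its 95% interval was -1.03 to 1.30, and without AP.2 the estimate was -0.39. Thus IL-33 and its accessory chain were called while its ligand-binding chain was not, and a difference between these genes in their response was not tested.

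Il1r2, the decoy receptor, had 371 normalized counts in VC.1, 403 in VC.2, 233 in VC.3 and 444 in VC.4, and 767 in AP.1, 245 in AP.2, 370 in AP.3 and 411 in AP.4. The groups overlapped, with AP.1 highest and VC.3 lowest. The log2 fold change was 0.22 (SE 0.32, limma adjusted p = 0.672), its 95% interval was -0.47 to 0.91, and without AP.1 the estimate was -0.079. The ratio of Il1r2 to Il1r1 was 2.68, 3.59, 0.91 and 2.55 in the VC libraries against 2.83, 0.50, 1.64 and 1.97 in the AP libraries. The difference of the log2 ratio between groups was -0.57, with an exact two-sided permutation p of 0.486, and it was -0.058 without AP.2.

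**Figure D2:**
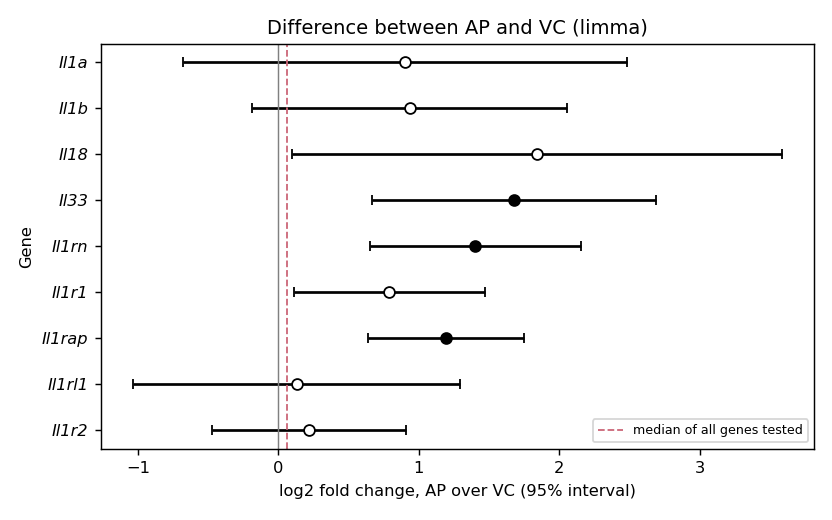
Log2 fold change of each member, AP over VC, with its 95% interval from limma, where filled points mark an adjusted p under 0.05. The intervals of Il33, Il1rn and Il1rap start at 0.67, 0.65 and 0.64, and the dashed line marks the median of all genes tested (0.058).

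Levels were compared between members per kb of the longest protein-coding transcript. In VC, Il1r2 was the most abundant at 256 ± 64.5 normalized counts per kb (SD, n = 4), followed by Il33 (35.6 ± 17.3), Il1rn (29.6 ± 5.20), Il1r1 (29.3 ± 10.8) and Il18 (28.1 ± 21.1). Il1rap (18.4 ± 5.66), Il1b (16.6 ± 13.9), Il1rl1 (7.77 ± 3.38) and Il1a (5.39 ± 4.67) came next, and by the ranges of mean ± SD the step from Il1r2 to Il33 was the only clear one between neighbors. In AP the order was Il1r2 (316 ± 158), Il33 (119 ± 63.7), Il1rn (86.4 ± 43.1), Il18 (78.5 ± 40.9), Il1r1 (51.3 ± 22.3), Il1rap (40.7 ± 2.28), Il1b (27.7 ± 8.56), Il1rl1 (10.05 ± 9.08) and Il1a (9.72 ± 7.81). There the ranges of neighbors were separate between Il1rap and Il1b and between Il1b and Il1rl1. The decoy receptor thus had the highest mean in both groups, and the order of Il1rl1 and Il1a was not clear in either.

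Markers of several cell types also differed between the groups, and only some members shared their order over the libraries. Il1rap, for example, was close over the AP libraries (185, 175, 198 and 179). All 22 suprabasal keratinocyte markers had a log2 fold change above 0 (median 2.73), and 16 were called higher and 0 lower in limma, where 19 were higher and 0 lower at an unadjusted p under 0.05 and both edgeR and DESeq2 called 0 lower. Their summed normalized counts were 7947, 15369, 10982 and 7678 in the VC libraries against 49310, 45925, 136510 and 185900 in the AP libraries. AP.3 and AP.4, which held the highest Il33, Il1rn and Il18, were thus also highest in these markers. Krt10, the main keratin of the differentiating epidermis and the most abundant gene of this list, had 1302, 4085, 2280 and 1838 normalized counts in the VC libraries against 15852, 17528, 47444 and 73321 in the AP libraries, so transcripts of differentiating keratinocytes were present in every library. Whether they came from the follicle or from epidermis left after dissection cannot be told from these tables. Of the others called, the log2 fold change was 4.41 for Hrnr (SE 0.76, limma adjusted p = 0.0104), 3.95 for Krt77 (SE 0.53, limma adjusted p = 0.00435) and 3.47 for Flg2 (SE 0.94, limma adjusted p = 0.0404). The part of keratinocyte content in the differences of Il33, Il1rn and Il18 was not tested, and in bulk tissue more cells of a type cannot be told apart from more RNA per cell.

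Basal keratinocyte markers had a median log2 fold change of 1.07, with 6 of 11 called higher, Itga6, Col17a1 and Dst among them, and their summed counts were 30760, 85801, 55219 and 26179 in the VC libraries against 59711, 58918, 109529 and 153015 in the AP libraries. Krt14 was their most abundant gene. By edgeR 4 of these genes were called higher, and 3 in limma when scaled by total count without mitochondrial genes. VC.2, the highest VC library in basal markers, had the highest Il1rn of that group, while Il33 (142) and Il18 (42.3) were highest in VC.3 there. Of the 6 wound and companion layer keratins, Krt6b and Krt16 were called higher (list median 1.33, Krt17 most abundant), and the summed counts were 9286, 16230, 11425 and 6810 in the VC libraries against 12269, 22166, 42827 and 32360 in the AP libraries.

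Endothelial markers followed another order. Of 8 such genes 2 were called higher, Cdh5 and Pecam1, while 7 were higher at an unadjusted p under 0.05 in limma, 2 by edgeR and 6 by DESeq2. Over all genes tested, limma called 6.33% higher. All 8 endothelial genes lay above 0, with a list median of 1.41 and Vwf the most abundant. Their summed counts were 1179, 1300, 2380 and 2265 in the VC libraries against 3638, 8323, 2917 and 3437 in the AP libraries. AP.2 was the highest, and it was the library with the highest Il1r1 (489) and Il1rl1 (125). Among the VC libraries, VC.3 was the highest in endothelial markers (2380) and in Il1r1 (257) but the lowest in Il1rl1 (20.5). Macrophage markers had 0 of 11 called in limma, with 6 lower and 0 higher at an unadjusted p under 0.05, 0 called in edgeR and 3 lower in DESeq2, and a list median of -0.78. Their summed counts, led by Lyz2, were 19526, 10068, 8829 and 25960 in the VC libraries against 12196, 8335, 5979 and 6210 in the AP libraries. VC.4, the library with the high Il1b value of 50.6, was the highest in them. The other libraries did not keep this match. VC.1 had 19526 in macrophage markers and the lowest Il1b (10.9), while AP.3, the lowest in these markers, had an Il1b of 48.3. The part of either cell type in these values was not tested.

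**Figure D3:**
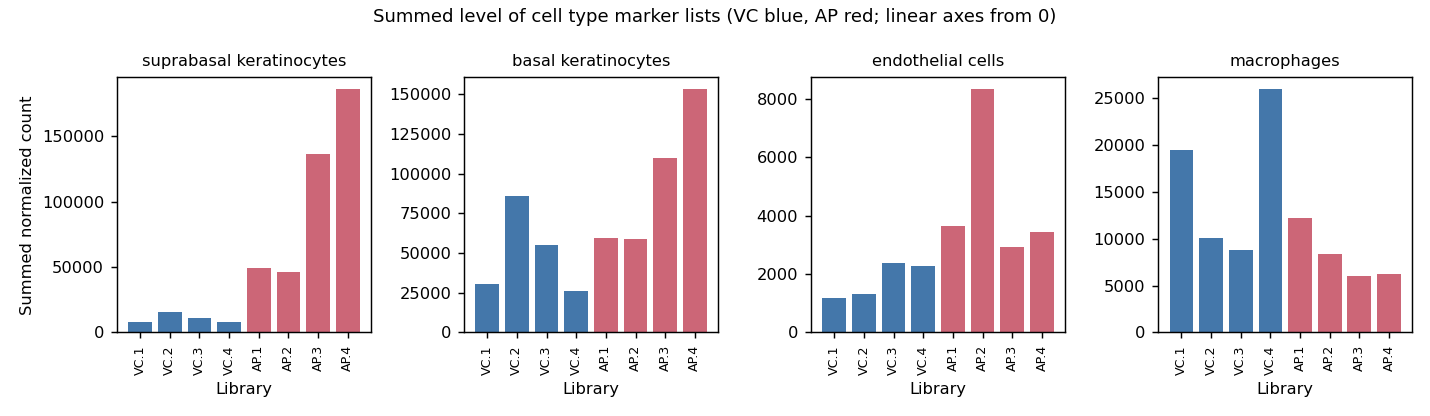
Summed normalized counts (linear axes from 0) of the suprabasal keratinocyte, basal keratinocyte, endothelial and macrophage marker lists in each library, with VC in blue and AP in red. AP.3 (136510) and AP.4 (185900) are highest in suprabasal markers, AP.2 (8323) in endothelial markers and VC.4 (25960) in macrophage markers.

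Other leukocytes were examined because they carry IL-1 family receptors. Mast cells are known for high Il1rl1, and 2 of 7 mast cell genes tested, the proteases Tpsb2 and Mcpt4, fell by 1.39 and 1.08 on the log2 scale (limma adjusted p = 0.0453 and 0.0280). Of the 7 genes 3 lay above 0, the list median was -0.87, Mcpt4 was the most abundant gene, and Tpsab1 and Fcer1a did not pass the filter. The summed mast cell counts were 1186, 755, 706 and 1350 in the VC libraries against 648, 707, 458 and 372 in the AP libraries, while Il1rl1 was highest in AP.2. Scaled by total count, which moved the median of all genes to 0.90, the mast cell genes had a median of -0.0084 and the macrophage genes 0.088, and Tpsb2 and Mcpt4 were not called (limma adjusted p = 0.216 and 0.457), while 2 mast cell genes were called higher and 0 lower. With the mitochondrial genes left out of the total the medians were -0.83 and -0.74, and with upper-quartile factors -0.93 and -0.84, with 2 mast cell genes lower in either case. Of 5 neutrophil genes tested S100a9 was called higher (list median 1.53, S100a8 most abundant), with summed counts of 122, 114, 83.3 and 137 in the VC libraries against 76.2, 329, 260 and 607 in the AP libraries. The defining neutrophil genes Ly6g and Mpo are not in the table, and Retnlg and Ngp did not pass the filter. Of 11 T cell and innate lymphoid genes Trdc was called higher (list median 1.17, Gata3 most abundant, 8 above 0), and of 10 Langerhans and dendritic cell genes Cd207 was called higher (list median -0.081, Cd74 most abundant, 5 above 0). The summed counts were 1201, 770, 1094 and 551 in the VC libraries against 656, 702, 992 and 1047 in the AP libraries for the T cell list, and 20492, 12364, 8949 and 30407 in the VC libraries against 17119, 10330, 11412 and 11693 in the AP libraries for the Langerhans and dendritic cell list.

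The remaining lists had few calls. For fibroblasts the median log2 fold change was 0.41 over 9 genes (Col1a1 most abundant), for hair follicle stem cells 0.25 over 8 genes (Krt15 most abundant), for skeletal muscle -1.65 over 6 genes (Acta1 most abundant) and for adipocytes 0.23 over 5 genes (Fabp4 most abundant). In these lists 0 genes were called in limma, edgeR or DESeq2, while at an unadjusted p under 0.05 in limma there were 2 higher fibroblast genes, 2 lower stem cell genes, 4 lower muscle genes and 1 higher adipocyte gene. Of 5 red blood cell genes Hbb-bs, the most abundant, was called higher (list median 0.94), and 1 was lower at an unadjusted p under 0.05 in limma and called lower by DESeq2. Skeletal muscle counts summed to 63650 in AP.1, the library with the highest Il1r2, and to 4684 to 10000 in the other AP libraries, against 31337 to 62422 in VC. Fibroblast and follicle markers were thus present in every library, as dermis with hair follicles requires.

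The closest relatives of the members, the IL-36 ligands and their antagonist, had larger estimated fold changes where tested, and the difference from the members was not tested. These are epithelial cytokines that signal through the chain encoded by Il1rl2 with the accessory chain of Il1rap. Il1f8, which encodes IL-36β, had 3.64, 4.43, 4.10 and 1.88 normalized counts in the VC libraries against 13.8, 15.1, 49.3 and 77.2 in the AP libraries, with a log2 fold change of 2.83 (SE 0.63, limma adjusted p = 0.0230). It had 1 to 3 reads in each VC library, so this fold change, which is also the list median, depends on the pseudocount. Il1f5, which encodes the IL-36 receptor antagonist and was the most abundant of them, had 23.6, 47.3, 61.4 and 28.1 in the VC libraries against 170 in AP.1, 101 in AP.2, 418 in AP.3 and 410 in AP.4. Its log2 fold change was 2.61 (SE 0.47, limma adjusted p = 0.0113), so the antagonists of both receptor systems were called. Il1f9, which encodes IL-36γ, had 0, 13.3, 31.4 and 11.3 in the VC libraries against 37.7, 43.7, 116 and 165 in the AP libraries, and was named here after its values were seen. Its log2 fold change was 3.13 (SE 0.93, limma adjusted p = 0.0529), which depends on the pseudocount because VC.1 had 0 reads. All 3 of these genes had AP libraries above all VC libraries and were highest in AP.3 and AP.4, as were Il33 and Il1rn. Il1f6 and Il1f10 did not pass the filter on low values. The list thus had 2 genes higher and 0 lower among 3 tested, where edgeR and DESeq2 each called 3 higher and 0 lower, and a median of 2.83. Il36a, Il36b, Il36g, Il36rn and Il38 are other names of the same genes and are not in the table.

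Of the other receptors and binding proteins, 5 were tested, 0 were higher and 1 was lower in limma, where 2 were higher and 1 lower at an unadjusted p under 0.05, edgeR called 0 higher and DESeq2 called 1. Il18bp, which encodes the soluble protein that captures IL-18, had 182, 53.2, 122 and 95.6 normalized counts in the VC libraries against 37.0, 42.6, 24.9 and 27.9 in the AP libraries. All AP libraries were below all VC libraries, and it fell by 1.64 on the log2 scale (SE 0.38, limma adjusted p = 0.0253). Scaled by total count, where the median of all genes was 0.90, it stood at -0.79 (limma adjusted p = 0.0954). It was called lower with the mitochondrial genes left out of the total and with upper-quartile factors. Il1rl2, the IL-36 receptor chain and the most abundant gene of this list, had 255, 316, 276 and 429 in the VC libraries against 405, 332, 599 and 687 in the AP libraries (log2 fold change 0.63, SE 0.25, limma adjusted p = 0.117). Il1rapl1 and Il1rapl2 are not in the table.

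IL-1β and IL-18 are released as active cytokines after cleavage by inflammasome caspases, and gasdermins form the pores. Of 19 such genes tested, 3 were higher and 0 lower in limma, where 6 were higher and 1 lower at an unadjusted p under 0.05, and edgeR called 0 and DESeq2 1 lower. The list median was 0.10. The called genes were Gsdmc (log2 fold change 3.66, SE 0.94, limma adjusted p = 0.0341), Nlrp10 (2.48, SE 0.50, limma adjusted p = 0.0167) and Gsdma (1.65, SE 0.34, limma adjusted p = 0.0184). Gsdmc had 0 reads in VC.1 and at most 8 in the other VC libraries, so its fold change depends on the pseudocount. Gsdma and Gsdmc encode gasdermins of epithelia, and Nlrp10 encodes a sensor-family protein of the epidermis. Gsdma had 87.3, 68.0, 120 and 63.8 normalized counts in the VC libraries against 152, 198, 469 and 320 in the AP libraries, again highest in AP.3 and AP.4. Casp1, which encodes the caspase that cleaves IL-1β and IL-18, had 50.9, 59.1, 91.5 and 199 in the VC libraries against 92.1, 86.3, 79.7 and 78.7 in the AP libraries, with a log2 fold change of -0.036 (SE 0.38, limma adjusted p = 0.961), and was named after its values were seen. Its highest value was in VC.4, as for Il1b. Capn2 was the most abundant gene of this list. Nlrp1a, Gsdmc2 and Elane did not pass the filter, and Gsdma2, Gsdmc3, Gsdmc4 and Ctsg are not in the table.

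Downstream of the receptors, MyD88, the IRAK kinases and TRAF6 lead to NF-κB. Of 30 genes of this pathway 7 were higher and 0 lower in limma, where 12 were higher and 1 lower at an unadjusted p under 0.05 and edgeR and DESeq2 called 0 lower. In all, 26 of the 30 lay above 0, with a median of 0.35. The share called higher in limma over all genes tested was 6.33%. Tnfaip3, which encodes the ubiquitin-editing inhibitor A20, had 30.9, 17.7, 47.8 and 16.9 normalized counts in the VC libraries against 147, 122, 153 and 109 in the AP libraries. All AP libraries were above all VC libraries and close to each other (log2 fold change 2.30, SE 0.36, limma adjusted p = 0.00843). Zc3h12a, which encodes an RNase that degrades cytokine transcripts, had a log2 fold change of 1.56 (SE 0.44, limma adjusted p = 0.0459), the kinase gene Irak2 one of 1.30 (SE 0.30, limma adjusted p = 0.0263) and the NF-κB subunit gene Rel one of 1.25 (SE 0.26, limma adjusted p = 0.0182). Nfkb1 was the most abundant gene of the pathway.

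Genes known as targets of IL-1 were tested in the same way. Of 22 tested, 4 were higher and 0 lower in limma, where 7 were higher and 0 lower at an unadjusted p under 0.05 and edgeR and DESeq2 called 0 lower. The share called higher in limma over all genes tested was 6.33%. The list median was 0.63, with 16 of the 22 genes above 0. Summed counts of the list were 1652, 1593, 1946 and 4558 in the VC libraries against 1937, 2364, 1704 and 2355 in the AP libraries. Their mean was 2437 in VC and 2090 in AP. Ptgs2, which encodes the inducible cyclooxygenase, had 5.46, 4.43, 5.46 and 1.88 normalized counts in the VC libraries against 52.2, 60.9, 66.3 and 82.3 in the AP libraries (log2 fold change 3.70, SE 0.44, limma adjusted p = 0.00237). Its AP libraries were all far above the VC libraries. The neutrophil chemokine genes Cxcl1 (log2 fold change 3.64, SE 0.87, limma adjusted p = 0.0275) and Cxcl2 (2.94, SE 0.73, limma adjusted p = 0.0312) were called, as was S100a9 (3.11, SE 0.82, limma adjusted p = 0.0365). Cxcl1 had 0 counts in VC.1 and VC.2, Cxcl2 had 0 in VC.1, and Ptgs2 had at most 4 reads in any VC library, so these fold changes depend on the pseudocount. Mmp3 was the most abundant gene of the list, with a log2 fold change of -0.38, and Saa3 stood at -1.17, neither of them called. Ccl20 and Csf3 did not pass the filter, and Csf2 is not in the table. Most of these genes also answer to other cytokines and are made by several of the cell types above.

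For each agonist ligand, the genes whose centered log2 values were closest over the 8 libraries were sought among the genes with a mean of at least 50 normalized counts, 11256 for Il33 and 11257 for the others. For Il33 these were Ptgs1, Casp14 and Gm26550, with root mean square differences of 0.28, 0.31 and 0.32. Casp14 encodes a caspase of cornifying keratinocytes, and Ptgs1 the constitutive cyclooxygenase. For Il1b they were Sorcs2 (0.21), 1810008B01Rik (0.36) and Fam43a (0.37). For Il1a they were Paqr5 (0.44), Knl1 (0.44) and Ulk3 (0.50), and for Il18 P2ry1 (0.54), Garem1 (0.56) and Nup160 (0.59), so these last ligands had no neighbor as close as those of Il33 and Il1b. These are descriptions of 8 libraries and carry no test.

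Some members lie close to each other in the genome, while Il18, Il33 and Il1rap are each alone on their chromosome. In mm10, Il1r2 (40074079 to 40125231), Il1r1 (40225080 to 40317257) and Il1rl1 (40429570 to 40465415) are on chromosome 1, with Il1rl2 between the last 2. Il1a (129299610 to 129309972) and Il1b (129364570 to 129371139) neighbor each other on the minus strand of chromosome 2, and Il1rn lies on the plus strand of the same chromosome near Il1f5 (24276954 to 24283426). Il18 is on chromosome 9 (50554827 to 50581840). The neighbors on chromosome 1 did not share their highest library, which was AP.1 for Il1r2 and AP.2 for Il1r1 and Il1rl1, while Il1rn and Il1f5 both had their highest values in AP.3 and AP.4.

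Because Il33, Il1rn and Il1rap were higher together, the 250 bases before their starts are shown, from RefSeq with build GRCm38.p6. All 9 members matched by symbol, with 14 starts. Searched on both strands were the AP-1 motif TGANTCA, the TATA motif TATAAA and the NF-κB consensus. The AP-1 motif was in 2 of the 14 member windows (Il1rn and Il1a), against 6.75% of 32851 windows of all genes. TATAAA was in 5 (Il1a, Il1b, Il18 and both of Il33), against 12.4%, and the NF-κB consensus was in 1 (Il1r1), against 7.25%. Only the Il1a window held more than 1 of these motifs, at -32 and -12, and they did not overlap. Capitals mark a motif, positions count back from the start, and a match is a description of the letters and not of binding. The windows are all on the plus strand, at chr2:24336610-24336859 for the first of 3 Il1rn starts (AP-1 motif at -141), chr19:29924863-29925112 and chr19:29945540-29945789 for the Il33 starts (TATAAA at -203 and -29) and chr16:26581455-26581704 for Il1rap, where these letters were not found.
Il1rn, first start: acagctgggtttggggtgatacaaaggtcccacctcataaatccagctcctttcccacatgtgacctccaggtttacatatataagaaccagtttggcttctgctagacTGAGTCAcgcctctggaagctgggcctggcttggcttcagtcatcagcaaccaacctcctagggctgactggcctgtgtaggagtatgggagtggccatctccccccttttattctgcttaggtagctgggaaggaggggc
Il33, first start: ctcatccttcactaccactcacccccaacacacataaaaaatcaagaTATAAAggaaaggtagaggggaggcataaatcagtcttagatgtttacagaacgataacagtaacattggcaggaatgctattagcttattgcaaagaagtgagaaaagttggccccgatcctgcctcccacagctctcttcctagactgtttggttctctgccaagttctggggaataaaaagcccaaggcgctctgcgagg
Il33, second start: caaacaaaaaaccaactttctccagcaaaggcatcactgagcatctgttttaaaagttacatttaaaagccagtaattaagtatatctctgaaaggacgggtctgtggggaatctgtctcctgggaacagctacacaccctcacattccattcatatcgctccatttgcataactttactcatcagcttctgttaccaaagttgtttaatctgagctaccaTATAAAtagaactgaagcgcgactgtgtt
Il1rap: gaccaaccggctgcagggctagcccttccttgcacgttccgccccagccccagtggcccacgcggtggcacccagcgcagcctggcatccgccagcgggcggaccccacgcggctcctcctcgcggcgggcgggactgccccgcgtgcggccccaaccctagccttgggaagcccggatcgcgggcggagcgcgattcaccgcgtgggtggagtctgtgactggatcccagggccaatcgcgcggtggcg
The other Il1rn starts held none of these motifs, and which start was used cannot be read from counts per gene.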

How the data were processed

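Messenger RNA of 8 skin libraries was sequenced, 4 per group. The authors used STAR with mm10 for alignment, and the program that made the gene counts is featureCounts in the study's methods and HTSeq in the submitters' processing notes. The signal values deposited by the authors are gene counts divided by a DESeq2 size factor per library. All 150160 values were whole multiples of 1 step per library (100% within a tolerance of 0.001), so reads were recovered. Columns of the authors' own comparison (mean, fold change, its error, statistic, p-value and adjusted p-value) were not used.

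The main test was limma 3.58.1 in R 4.3.3, in which empirical Bayes shrinks variances toward a trend on mean level, fitted to log2(value + 1) of genes that reached 3 normalized counts in 4 or more libraries and adjusted by Benjamini-Hochberg. Alternatives were edgeR 4.0.16 and DESeq2 1.42.0 on recovered reads, other scalings, filters and pseudocounts, a transcript-length trend removed, the study's thresholds and each library left out. In a further alternative, for equal depth, reads were drawn down to the smallest nuclear read total (3080758), and only this total was matched. The steps were tested on simulated data. Counting error only is covered by the floor of 3 reads. All 18770 gene identifiers matched GENCODE M21. Members and lists were chosen with earlier results of these data known. The text names all members, and of each other list up to 4 called genes per direction by absolute log2 fold change, the most abundant gene and genes not in the table or not tested, and for each agonist the 3 genes closest to it.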

Additional observations from a re-analysis of the deposited data

Results flagged for a closer look

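In 22 groups of 4 libraries (each member and each ratio, in VC and in AP), the gap of the highest or lowest library to its nearest neighbor was divided by the group's range. In 2 groups it exceeded Dixon's critical value for 4 values at 95% confidence, and chance gives this in about 1 in 20 groups. Il1b in VC.4 was 50.6 normalized counts, against 10.9 to 16.3 in the other VC libraries, and its gap was 0.866 of the range. Il1rl1 in AP.2 was 125 normalized counts, against 23.6 to 35.5 in the other AP libraries, and its gap was 0.882 of the range. By summed counts, macrophage, mast cell, and Langerhans and dendritic cell markers were highest of all libraries in VC.4, and endothelial and red blood cell markers in AP.2. By the mean of log2 values, mast cell markers were highest in VC.1 (5.48), against 5.03 in VC.4. The part of these cell types in the Il1b and Il1rl1 values was not tested.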

How the results depend on the processing

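Il33, Il1rn and Il1rap were called by edgeR, by DESeq2, under every scaling, filter, pseudocount and depth tried, with the length trend removed and by the study's thresholds when put on the limma results (2169 genes). Of 180 alternatives for single members, 157 kept direction and side of the threshold, 15 lost the call, 4 gained it and 4 changed sign. Scaling by total count called 7 members, with 5 not overlapping, and 8735 genes (8670 higher), but it moved the median of all genes to 0.90. Under this scaling Il1rn stood at 2.26, Il33 at 2.54, Il1rap at 2.06, Il1r1 at 1.65 and Il1r2 at 1.09. The other members called there were Il18 at 2.62 and Il1b at 1.76 (limma adjusted p = 0.0170 and 0.0134). DESeq2 called 3039 genes and removal of the length trend left 1094, against 1650 (1011 higher, 639 lower). Upper-quartile factors called 1782 (890 higher, 892 lower). Leaving out 1 library gave 303 (AP.3) to 1899 (AP.1) genes, 846 without VC.1, 553 without AP.2 and 393 without AP.4. Members called ranged from 0 to 3 (0 without AP.3 or AP.4, 1, Il1rap, without VC.1 or VC.4) and members not overlapping from 2 to 4 (4 without VC.3). Without both AP.3 and AP.4, an alternative chosen after seeing the data, limma called 30 genes and 0 members (3 at an unadjusted p under 0.05), and the log2 fold change was 0.75 for Il1rn, 0.96 for Il33 and 1.16 for Il1rap. Il1rl1 was at -0.11 with the length trend removed and ranged from -0.39 to 0.40 over libraries left out, with -0.16 without VC.3. Il1r2 was at -0.079 without AP.1, at 0.47 without AP.2 and at 0.52 with the length trend removed, where Il1r1 was at 0.50. The ratios changed no call, with ranges of 0.35 to 0.85 for Il1rn to its agonists and -0.99 to -0.058 for Il1r2 to Il1r1. The causes were not tested. No paired analysis was possible because the groups share no replicate numbers and the columns name no single mouse. VC libraries hold fewer nuclear reads than AP libraries. With reads drawn down to the smallest nuclear total, Il33, Il1rn and Il1rap were still called higher (limma adjusted p = 0.0378, 0.0255 and 0.0257). Only this total was matched, and other differences between the libraries, such as the share of mitochondrial reads, still go with group. For Il1a and Il18 single reads set the lowest VC values.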
